A study of Mus musculus with 12 samples.

Results

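The 37 genes described here carry glucose through glycolysis or respond to low oxygen. They were taken by symbol from a table of 21792 genes, and all 37 had a row and were tested. They are genes of the main glycolytic enzymes other than enolase, of the carriers of glucose and lactate and of a pyruvate dehydrogenase kinase, 2 regulators of phosphofructokinase, 2 subunits of hypoxia-inducible factor (HIF) and 15 of its target genes outside glycolysis. Their RNA was measured in 12 colon tumours of FvB mice that had been given azoxymethane, a carcinogen that acts on the colon, at 10 mg/kg by injection into the abdomen once weekly for 6 weeks, with the end of the experiment in week 16 counted from the first injection. There were 3 libraries of each of 4 genotypes, namely wt, p53 deficient, miR-34a deficient and double deficient (lacking both), and the labels place each deficiency in intestinal epithelial cells (IEC). All 4 groups carried the same carcinogen treatment, and the labels name neither the promoter that drove deletion nor whether replicates came from separate animals. Below, p53-lacking stands for the p53 deficient and double deficient tumours together, and p53-retaining for the wt and miR-34a deficient ones.

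Glycolysis turns glucose into pyruvate, and lactate dehydrogenase turns pyruvate into lactate, so that ATP can be made without oxygen. When oxygen is low, the HIF-1 alpha protein escapes the prolyl hydroxylases that mark it for destruction, enters the nucleus and raises the transcription of most glycolytic genes and of genes for vessel growth, pH balance and mitochondrial removal. HIF-1 alpha is controlled largely through the stability of the protein, so the level of its RNA does not measure its activity. The tumour suppressor p53 is known to restrain glucose uptake and glycolysis by several routes. The microRNA miR-34a is itself a p53 target, and Ldha is among the transcripts it has been reported to repress.

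Values are normalized scores per gene rounded to whole numbers. They do not show how deeply a library was sequenced, and they are compared between libraries of 1 gene but not between genes. Trp53, the gene of p53, lay between 3466 and 5120 in the 6 p53-retaining libraries and between 401 and 924 in the 6 p53-lacking ones. The summed level of 6 epithelial markers lay between 368768 and 645127, and no marker of the 6 was at 0 in any library. Libraries also differed in sex-linked and positional genes. For 4 Y-linked genes the average log2 level was at most 0.79 in wt 1, miR-34a deficient 1 and the 3 double deficient libraries and at least 2.77 in the other 7. For 10 posterior Hox genes, which mark position along the gut, it was 7.95 in p53 deficient 2 and lay between 11.1 and 13.7 elsewhere. A run code in the library names set miR-34a deficient 1 and p53 deficient 1 apart from the other 10. A direction of variation within genotypes was absent from the deposited values, with 47.2% of its squared weights on double deficient 3 and 16.5% on double deficient 2. Differences below are in log2 of the value plus 1, as difference ± SE with n = 3 libraries per genotype, and a gene is said to rise or fall when the limma test gave an adjusted p under 0.05 over all 21322 genes tested. Those p-values measure the spread between these libraries, which may be technical.

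Tumours that lacked p53 were compared with tumours that retained it. Pooled over both miR-34a states, 9 of the 20 genes of glycolysis, carriers and PFK2 and 2 of the 15 HIF targets outside glycolysis passed. In all, 11 of the 37 genes rose and none fell, where 5.05% of all genes tested were called in either direction, 471 higher and 605 lower. The 11 were all 5 listed genes of lower glycolysis, Pfkm and Aldoc of upper glycolysis, Ldha and the lactate exporter gene Slc16a3, and the HIF targets Bnip3 and Ak4. At an unadjusted p under 0.05, 27 of the 37 were higher, against 9.93% of all genes, and Epas1 alone was lower. Over the 23 alternative fits that count of higher genes lay between 22 and 28. The median difference of the 37 was 0.63 and that of all genes tested was -0.06, and 34 of the 37 lay above 0. In bulk tissue, more cells of a type and more RNA per cell cannot be told apart. The summed level of 3 red blood cell genes moved with p53 status too, between 168 and 717 in p53-retaining and between 787 and 14173 in p53-lacking tumours, and its part in these levels was not tested. Under 2 other scalings the median of the 37 was 0.67 and 0.65.

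How many of the 37 passed depended on single libraries. Without double deficient 3 none of the 37 passed in the limma test and 71 genes of all did, while 22 of the 37 were higher at an unadjusted p under 0.05 and the median was 0.59. The count was 3 without miR-34a deficient 1, 2 or 3 in turn, 4 without wt 2, p53 deficient 3 or double deficient 2, 7 without wt 1 and 17 without p53 deficient 1. With the absent direction of variation as a covariate 3 genes remained called, namely Pgk1, Slc16a3 and Ak4. These 3 passed in 22 of 23 alternative fits each and were lost only without double deficient 3, with adjusted p-values of 0.0553, 0.0588 and 0.0623.

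**Figure D1:**
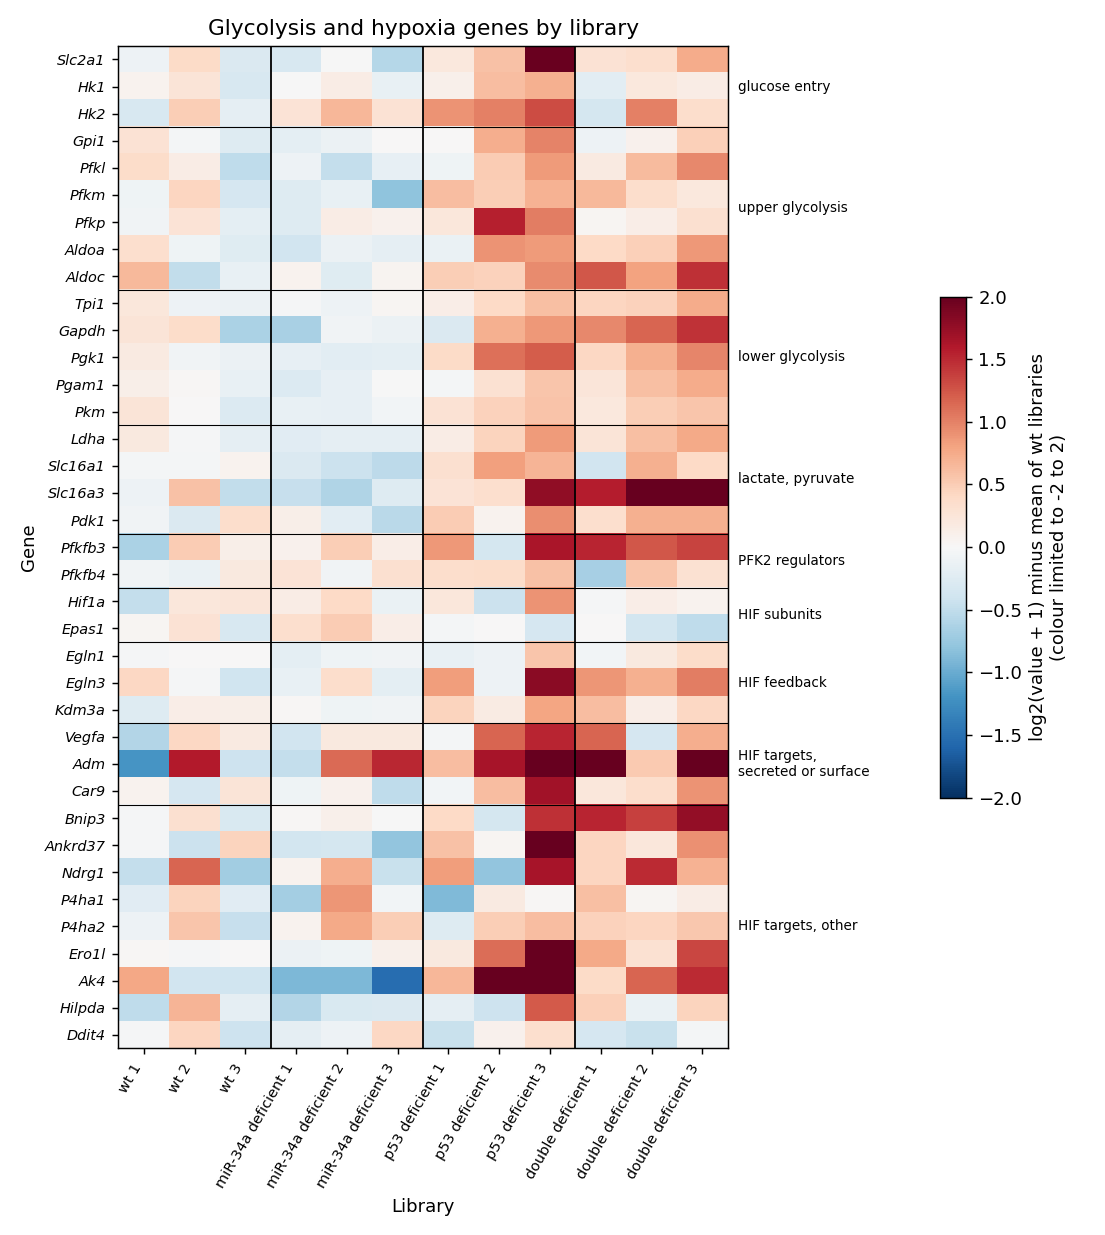
Each of the 37 genes (rows, grouped by role) in each of the 12 libraries (columns, replicates 1 to 3 of the 4 genotypes), coloured by log2(value + 1) minus the mean of the wt libraries, with the colour limited to -2 and 2. Most rows are red in p53 deficient 3 and double deficient 3 and pale or blue in the 3 miR-34a deficient libraries, while Hif1a, Epas1, P4ha1 and Ddit4 show no such split.

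**Figure D2:**
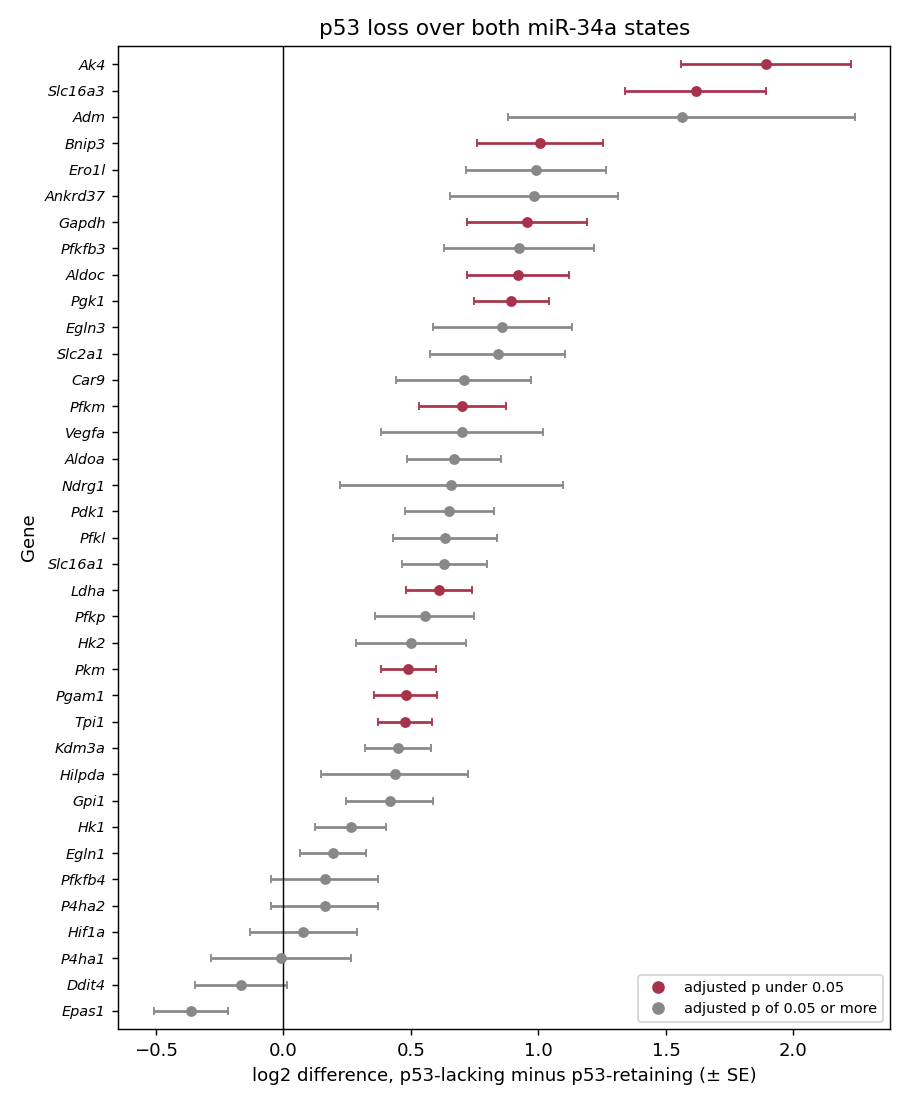
Log2 difference between p53-lacking and p53-retaining tumours for each of the 37 genes, ordered by size, with bars of ± 1 SE from the fit to all 12 libraries; red points have an adjusted p under 0.05. The 11 red points lie between 0.48 for Tpi1 and 1.89 for Ak4, and the lowest point is Epas1 at -0.36.

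The promoters of most of the 37 genes hold the letters through which HIF is known to bind DNA. RefSeq promoter windows (GRCm38.p6, 250 bases before to 50 bases after a start) were found for 34 of the 37 genes, 52 windows in all; Epas1, Ndrg1 and Ero1l had no entry under their symbols. The motif searched was ACGTG or GCGTG on either strand, with overlapping matches taken as 1 place; it also lies inside CACGTG, the E-box that MYC and other factors bind. It occurred in 42 of the 52 windows (80.8%) and in 14380 of 32851 windows of all genes (43.8%). Some windows of the same gene overlap, such as those of Ak4 and Aldoa, so a place could be counted in more than 1 window. The windows of the 37 genes were richer in CpG, with a median of 22 against 7. Among windows with 12 to 27 CpG, 25 of 29 (86.2%) held the motif, against 5558 of 8349 (66.6%). That range does not match CpG content, since the median within it was 23 for the 37 genes and 19 for all, and the motif itself holds a CpG. By gene, with no limit on CpG, 32 of 34 had a window with the motif, the exceptions being Tpi1 and Gpi1, and 46.7% of all genes did. A match is a string of letters and not a shown binding site. Stretches of 100 bases are printed for Pgk1, Slc16a3 and Ak4, whose calls each held in 22 of 23 alternative fits, and for Ldha and Bnip3. The stretches are on the strand of the gene, with the motif in capitals. They lie at chrX:106186912-106187011 for Pgk1, chr11:120948967-120949066 for Slc16a3, chr4:101419186-101419285 for Ak4, chr7:46845704-46845803 for Ldha and chr7:138909531-138909630 for Bnip3, of which the last is on the minus strand.
Pgk1: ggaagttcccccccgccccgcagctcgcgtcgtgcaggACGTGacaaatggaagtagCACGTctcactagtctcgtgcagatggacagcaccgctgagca
Slc16a3: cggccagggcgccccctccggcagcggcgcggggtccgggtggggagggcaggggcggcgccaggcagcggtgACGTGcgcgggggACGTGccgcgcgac
Ak4: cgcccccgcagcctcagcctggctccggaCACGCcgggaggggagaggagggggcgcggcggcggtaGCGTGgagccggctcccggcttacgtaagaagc
Ldha: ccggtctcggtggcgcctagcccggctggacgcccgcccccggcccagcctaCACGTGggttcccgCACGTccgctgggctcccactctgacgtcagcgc
Bnip3: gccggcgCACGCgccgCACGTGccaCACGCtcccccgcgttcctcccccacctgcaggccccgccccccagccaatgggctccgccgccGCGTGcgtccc

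Each printed stretch was picked as the 100 bases before a start that held the most places. The number and closeness of places in it therefore follow in part from that choice. Pgk1 and Ldha carry 2 places with few bases between them, Slc16a3 carries ACGTG in 2 places on the gene's strand, and Bnip3 carries 4 places in 100 bases. The stretches of Pgk1, Ldha and Bnip3 hold no annotated exon, while 9 bases of that of Ak4 and 14 of that of Slc16a3 do.

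Glucose enters through Slc2a1, the GLUT1 carrier, and is trapped in the cell by the hexokinases Hk1 and Hk2. None of these 3 genes passed over both miR-34a states. Slc2a1 stood at 6779, 9482 and 5974 in wt, 5844, 7235 and 4902 in miR-34a deficient, 8455, 10896 and 28583 in p53 deficient and 8859, 9172 and 12224 in double deficient tumours. The value of p53 deficient 3 was more than any other by a wide margin, and the p53 deficient and wt groups overlapped. Pooled over both states its difference was 0.84 ± 0.26 (adjusted p = 0.0851), and 0.58 without p53 deficient 3. Hk2 stood at 4980, 8751 and 5437 in wt, 7452, 9754 and 7600 in miR-34a deficient, 11562, 12477 and 15335 in p53 deficient and 4871, 12405 and 7854 in double deficient tumours. All 3 p53 deficient libraries lay above all wt libraries, while double deficient 1 was the lowest of the 12. The difference of Hk2 was 1.07 ± 0.31 in p53 deficient against wt (adjusted p = 0.155) and -0.74 ± 0.31 in double deficient against p53 deficient tumours (adjusted p = 0.283), so neither passed. Hk1 ranged from 4742 to 9677 and differed by 0.47 ± 0.20 between p53 deficient and wt tumours (adjusted p = 0.290; 0.31 without wt 3).

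Upper glycolysis runs from glucose-6-phosphate to the split by aldolase, with phosphofructokinase as its main control point. Of its 6 genes, Pfkm and Aldoc rose with p53 loss over both miR-34a states and the other 4 had differences between 0.42 and 0.67 that did not pass. Pfkm, the muscle-type subunit of phosphofructokinase, was at 410, 587 and 347 in wt, 367, 394 and 251 in miR-34a deficient, 668, 614 and 711 in p53 deficient and 687, 557 and 507 in double deficient tumours. The p53 deficient libraries all lay above the p53-retaining ones, and double deficient 2 and 3 lay below wt 2. Its pooled difference was 0.70 ± 0.17 (adjusted p = 0.0408), and it passed in 7 of 23 alternative fits. Pfkl, the liver-type subunit, was at 6664, 5743 and 3630 in wt, 4832, 3705 and 4627 in miR-34a deficient, 4856, 7378 and 9357 in p53 deficient and 5868, 8071 and 10114 in double deficient tumours, a pooled difference of 0.63 ± 0.20 (adjusted p = 0.0900). Pfkp, the platelet-type subunit, was at 5309, 6745 and 4848 in wt, 4677, 6184 and 5953 in miR-34a deficient, 6545, 16376 and 11393 in p53 deficient and 5752, 6139 and 6965 in double deficient tumours. It was high in p53 deficient 2 and 3 only. The difference of Pfkp was 0.94 ± 0.27 against wt in p53 deficient tumours (adjusted p = 0.161) and -0.77 ± 0.27 in double against p53 deficient tumours (adjusted p = 0.218), and its transcripts overlap with those of Pitrm1, so reads of both may be shared.

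Aldolase comes in forms A and C here, and the C form is better known from brain. Aldoa was at 26758, 19875 and 17887 in wt, 16264, 19475 and 18721 in miR-34a deficient, 19313, 39482 and 38074 in p53 deficient and 27779, 29397 and 38601 in double deficient tumours. Only p53 deficient 1 of the p53-lacking libraries lay within the p53-retaining range, and the pooled difference was 0.67 ± 0.18 (adjusted p = 0.0577). Aldoc was at 853, 387 and 495 in wt, 571, 462 and 570 in miR-34a deficient, 769, 755 and 1054 in p53 deficient and 1292, 958 and 1502 in double deficient tumours. Its double deficient libraries lay above all p53-retaining ones, and it rose by 0.92 ± 0.20 (adjusted p = 0.0293) over both states, passing in 15 of 23 alternative fits. Gpi1, the isomerase that follows hexokinase, ranged from 15167 to 35973 and had a pooled difference of 0.42 ± 0.17 (adjusted p = 0.165).

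Lower glycolysis, from triose phosphate isomerase to pyruvate kinase, was the only role in which every gene tested passed over both miR-34a states. Of the 23 alternative fits, Pgk1 passed in 22, Tpi1 in 13, Pkm in 12, and Gapdh and Pgam1 in 9 each. Leaving out any single miR-34a deficient library took away every call of this role but that of Pgk1. Pgk1, phosphoglycerate kinase and the first step that yields ATP, was at 22702, 19104 and 18450 in wt, 17850, 17213 and 17513 in miR-34a deficient, 26054, 42930 and 46398 in p53 deficient and 26652, 32630 and 39272 in double deficient tumours. All 6 p53-lacking libraries lay above all 6 p53-retaining ones. Pgk1 rose by 0.89 ± 0.15, or 1.86-fold (adjusted p = 0.0146), and by nearly the same size in each miR-34a state taken alone, 0.90 ± 0.21 with miR-34a present (adjusted p = 0.113) and 0.89 ± 0.21 with miR-34a lost as well (adjusted p = 0.0710), where neither difference passed. Pgk1 lies on the X chromosome (GRCm38, chromosome X, 106187100 to 106203699, plus strand). It was still called when the Y-linked level entered the fit, and 2 copies of its sequence in the table summed to at most 61.

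Pkm, pyruvate kinase, was at 86257, 72743 and 59495 in wt, 65255, 64491 and 69482 in miR-34a deficient, 87917, 99118 and 107139 in p53 deficient and 83722, 101242 and 105768 in double deficient tumours. The p53 deficient libraries lay above all wt ones, and the values do not separate the muscle-type splice forms. Pkm rose by 0.49 ± 0.11, or 1.40-fold (adjusted p = 0.0307). Tpi1, triose phosphate isomerase, was at 21216, 17021 and 16769 in wt, 17876, 16983 and 18673 in miR-34a deficient, 19889, 24152 and 27684 in p53 deficient and 24524, 25223 and 30383 in double deficient tumours, and rose by 0.48 ± 0.11 (adjusted p = 0.0314). Pgam1, phosphoglycerate mutase, was at 17134, 16120 and 14262 in wt, 13002, 14023 and 15642 in miR-34a deficient, 15419, 19588 and 23306 in p53 deficient and 18650, 23835 and 26319 in double deficient tumours, and rose by 0.48 ± 0.12 (adjusted p = 0.0477). For both, every double deficient library lay above every p53-retaining one, and p53 deficient 1 lay within the p53-retaining range.

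Gapdh, which makes NADH at the same stage and is often taken as a constant reference gene, was not constant here. It was at 3722, 4008 and 1992 in wt, 1968, 2947 and 2855 in miR-34a deficient, 2544, 5092 and 5647 in p53 deficient and 6056, 6953 and 8481 in double deficient tumours. The double deficient libraries lay above the other 9. Gapdh rose by 0.95 ± 0.23 over both states (adjusted p = 0.0434) and differed by 1.48 ± 0.33 between double and miR-34a deficient tumours (adjusted p = 0.0662). These values are uncertain, because 77 other genes, 74 of them pseudogenes, share at least 300 bases with Gapdh at 95% identity or more, and the 48 of them in the table summed to between 822 and 2573. Enolase, the remaining enzyme of lower glycolysis, is not counted among the 37 genes; its main form Eno1 differed by 0.22 ± 0.09 with p53 loss over both states (adjusted p = 0.172). Eno1 rose with miR-34a loss, by 0.93 ± 0.13 against wt (adjusted p = 0.0468) and by 0.89 ± 0.09 over both p53 states (adjusted p = 0.00247). Near-identical copies were sought for the 37 genes only, so reads that Eno1 may share with a copy are unknown. The cause of the rise of Eno1 was not tested.

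At the end of glycolysis Ldha makes lactate, Slc16a3 (MCT4) exports it, Slc16a1 (MCT1) moves it in either direction and Pdk1 keeps pyruvate out of the mitochondrial cycle. Ldha and Slc16a3 rose over both miR-34a states. Ldha was at 31671, 27369 and 24459 in wt, 23551, 24379 and 24499 in miR-34a deficient, 30817, 37617 and 49683 in p53 deficient and 32962, 42073 and 47025 in double deficient tumours. Of the p53-lacking libraries, p53 deficient 1 alone lay within the wt range, and Ldha rose by 0.61 ± 0.13, or 1.53-fold (adjusted p = 0.0277; passing in 14 of 23 alternative fits). In miR-34a deficient tumours, all 3 values of Ldha lay below wt 1 and wt 2.

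Slc16a3 was the gene of the 37 that passed in most comparisons. It was at 1371, 2212 and 1048 in wt, 1069, 971 and 1223 in miR-34a deficient, 1784, 1850 and 5007 in p53 deficient and 4370, 5973 and 7788 in double deficient tumours. The double deficient libraries lay above all p53-retaining ones, and p53 deficient 3 was the only p53 deficient library above wt 2. Slc16a3 rose by 1.62 ± 0.28, or 3.07-fold, over both states (adjusted p = 0.0155), by 2.0 ± 0.39 from wt to double deficient tumours (adjusted p = 0.0458), and by 2.44 ± 0.39 from miR-34a deficient to double deficient ones (adjusted p = 0.0194). Its difference between p53 deficient and wt tumours was 0.79 ± 0.39 (adjusted p = 0.360), and 0.305 without p53 deficient 3. The difference between those 2 effects of p53 loss, as an interaction, was 1.65 ± 0.55 and did not pass (adjusted p = 0.517). Against wt it passed in 9 of 24 alternative fits, and the call was lost without wt 1, wt 3, any miR-34a deficient or any double deficient library. Against miR-34a deficient tumours it passed in 19 of 24 and was lost without miR-34a deficient 1 or 2 or double deficient 3.

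Slc16a1 was at 3732, 3714 and 4012 in wt, 3135, 2847 and 2645 in miR-34a deficient, 4759, 6759 and 6099 in p53 deficient and 2936, 6256 and 5031 in double deficient tumours. The groups p53 deficient, wt and miR-34a deficient did not overlap and stood in that order, while double deficient 1 fell among the miR-34a deficient values. Its pooled difference with p53 loss was 0.63 ± 0.17 (adjusted p = 0.0531). Pdk1 was at 3261, 2799 and 4350 in wt, 3706, 2942 and 2359 in miR-34a deficient, 4870, 3592 and 6515 in p53 deficient and 4303, 5595 and 5584 in double deficient tumours, with a pooled difference of 0.65 ± 0.17 (adjusted p = 0.0545). Of the p53-lacking libraries, 2 lay within the wt range.

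**Figure D3:**
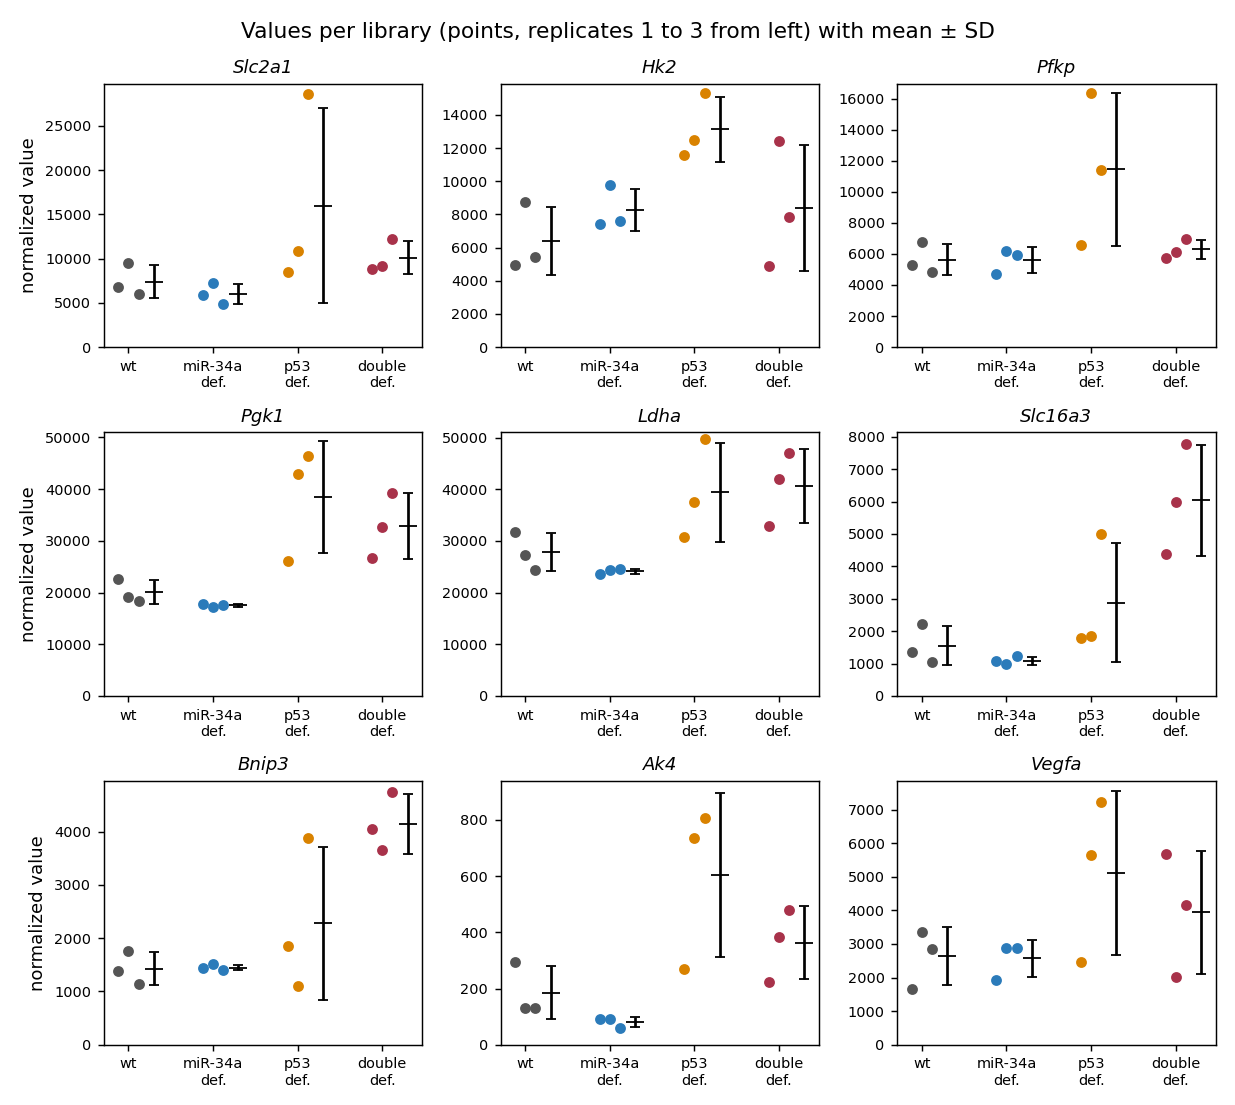
Normalized values (y axes, linear, from 0) of 9 genes in the 12 libraries; each point is a library, in the order of replicates 1 to 3, and the bar beside each genotype is the mean ± SD (n = 3). Pgk1 separates the p53-lacking from the p53-retaining groups, Slc16a3 and Bnip3 are highest in double deficient tumours, and the wide p53 deficient bars of Slc2a1, Bnip3 and Slc16a3 come from 1 high library, p53 deficient 3.

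The PFK2 genes Pfkfb3 and Pfkfb4 encode enzymes that make the sugar phosphate activating phosphofructokinase. Neither passed. Pfkfb3 ranged from 1022 to 2246 in p53-retaining tumours, was at 2883, 1243 and 4917 in p53 deficient and lay between 3727 and 4542 in double deficient tumours. Its pooled difference was 0.92 ± 0.30 (adjusted p = 0.0892), and in double deficient tumours against wt, where the groups did not overlap, 1.37 ± 0.42 (adjusted p = 0.157). Pfkfb4 ranged from 117 to 279 over the 12 libraries.

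Neither HIF subunit passed at the level of its RNA. Hif1a was at 6893, 11190 and 11357 in wt, 10629, 12568 and 8690 in miR-34a deficient, 11243, 7084 and 17826 in p53 deficient and 9428, 10520 and 10001 in double deficient tumours. All 4 groups overlapped, and p53 deficient 3 was again the highest. Its pooled difference was 0.08 ± 0.21 (adjusted p = 0.851), and it was -0.09 without that library. Epas1, the gene of HIF-2 alpha, was at 736, 874 and 574 in wt, 907, 1017 and 784 in miR-34a deficient, 701, 718 and 570 in p53 deficient and 725, 559 and 506 in double deficient tumours. Every miR-34a deficient library lay above every p53-lacking one, and the pooled difference was -0.36 ± 0.15 (adjusted p = 0.159), opposite in sign to 34 of the other members.

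Egln1 and Egln3, the prolyl hydroxylases that mark HIF for destruction, and Kdm3a, a histone demethylase, are themselves HIF targets. None of the 3 passed over both states. Kdm3a was at 2608, 3403 and 3366 in wt, 3153, 2926 and 2962 in miR-34a deficient, 4244, 3478 and 5381 in p53 deficient and 4745, 3398 and 4148 in double deficient tumours. Its p53 deficient libraries lay above the p53-retaining ones, the lowest by a small margin, and its pooled difference was 0.45 ± 0.13 (adjusted p = 0.0655). Egln3 ranged from 6240 to 11005 in p53-retaining tumours and was at 14732, 7641 and 28888 in p53 deficient and 15139, 13492 and 16740 in double deficient tumours, so that 1 of the 6 p53-lacking libraries lay in the p53-retaining range. Its pooled difference was 0.86 ± 0.27 (adjusted p = 0.0880). Egln1 ranged from 2911 to 4933.

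Of the HIF targets at the cell surface or secreted from the cell, Vegfa drives vessel growth, Adm encodes the vessel-widening peptide adrenomedullin, and Car9 encodes a carbonic anhydrase that exports acid. Vegfa was at 1675, 3360 and 2855 in wt, 1940, 2884 and 2883 in miR-34a deficient, 2453, 5656 and 7232 in p53 deficient and 5665, 2005 and 4159 in double deficient tumours. It was split within each p53-lacking group, and its pooled difference was 0.70 ± 0.32 (adjusted p = 0.209). Car9 was at 749, 563 and 852 in wt, 667, 754 and 500 in miR-34a deficient, 684, 1092 and 2272 in p53 deficient and 834, 910 and 1333 in double deficient tumours, a pooled difference of 0.71 ± 0.26 (adjusted p = 0.135). Adm was low, between 12 and 91 in 9 libraries and at 517 in p53 deficient 3 and 150 and 136 in double deficient 1 and 3. Its difference of 1.56 ± 0.68 (adjusted p = 0.191) became 1.06 without p53 deficient 3.

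Among the other 9 HIF targets, Bnip3, a receptor for the removal of mitochondria, and Ak4, a mitochondrial adenylate kinase, rose over both miR-34a states. Bnip3 was at 1391, 1752 and 1141 in wt, 1436, 1509 and 1402 in miR-34a deficient, 1852, 1105 and 3880 in p53 deficient and 4040, 3648 and 4748 in double deficient tumours. It was high in all double deficient libraries and in p53 deficient 3, and lowest of all 12 in p53 deficient 2. Bnip3 rose by 1.01 ± 0.25 (adjusted p = 0.0438; passing in 7 of 23 alternative fits), and double deficient tumours exceeded wt by 1.55 ± 0.35 (adjusted p = 0.0747) and miR-34a deficient ones by 1.51 ± 0.35 (adjusted p = 0.0695), without passing.

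Ak4 was at 294, 131 and 130 in wt, 91, 91 and 59 in miR-34a deficient, 271, 734 and 808 in p53 deficient and 224, 384 and 481 in double deficient tumours. Only wt 1 reached into the p53-lacking range, and the miR-34a deficient libraries were the 3 lowest. Ak4 rose by 1.89 ± 0.33, or 3.71-fold (adjusted p = 0.0171), which was the largest difference of the 37. Ero1l, an oxidase of the endoplasmic reticulum that helps form disulfide bonds, was at 3889, 3759 and 3848 in wt, 3547, 3629 and 4131 in miR-34a deficient, 4398, 8349 and 16793 in p53 deficient and 6509, 4717 and 9667 in double deficient tumours. All 6 p53-lacking libraries lay above all 6 p53-retaining ones, as for Pgk1, yet the spread among them was wide, with a pooled difference of 0.99 ± 0.27 (adjusted p = 0.0604).

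Ankrd37 had a pooled difference of 0.98 ± 0.33 (adjusted p = 0.101), from a range of 145 to 476 in 11 libraries and 1151 in p53 deficient 3. The remaining 5, Ndrg1, P4ha1, P4ha2, Hilpda and Ddit4, did not reach an unadjusted p under 0.05 in any of the 8 comparisons. Ndrg1, a stress-response gene, ranged from 4954 to 26941 and varied nearly as widely among the wt libraries, from 5309 to 19174. The collagen prolyl hydroxylase genes P4ha1 and P4ha2 ranged from 923 to 3158 and from 421 to 982, and both were highest in miR-34a deficient 2. Hilpda, which coats lipid droplets, ranged from 659 to 2319. Ddit4, an inhibitor of mTORC1 that is also a p53 target, ranged from 8483 to 15726 and was highest in wt 2.

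Each genotype was also set against wt alone. In p53 deficient tumours none of the 37 genes passed by limma, where 0.0234% of all genes were called. At an unadjusted p under 0.05, 17 of the 37 were higher and none lower, against 6.69% of all genes higher. Among these 17, Adm had the largest difference, 2.14 ± 0.96 (adjusted p = 0.321; 1.13 without p53 deficient 3), followed by Ak4 at 1.66 ± 0.47 (adjusted p = 0.153) and Ero1l at 1.15 ± 0.39 (adjusted p = 0.204; 0.66 without p53 deficient 3). The difference of Slc2a1 was 0.93 ± 0.37 (adjusted p = 0.275; 0.40 without p53 deficient 3). The other 13 lay between 0.38 for Tpi1 and 1.07 for Hk2. The groups did not overlap, with p53 deficient above wt, for Hk2, Pfkm, Pgk1, Pkm, Slc16a1, Pfkfb4, Kdm3a and Ero1l, which is 8 of 37, against 6.91% of all genes. The median of the 37 was 0.54 and became 0.31 without p53 deficient 3, when 4 were higher before adjustment. Without wt 3 that count was 8, and it was 6 when the Y-linked level entered the fit. Without p53 deficient 1, Pfkp and Pgk1 passed.

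In double deficient tumours against wt, Slc16a3 alone rose, where 0.802% of all genes were called, and 13 of the 37 were higher at an unadjusted p under 0.05, against 7.19% of all genes. The other 12 lay between 0.42 for Pkm and 1.55 for Bnip3, and the median of the 37 was 0.52. Without double deficient 3, 7 were higher before adjustment. Both groups stood apart, with double deficient above wt, for 12 of the 37, against 9.76% of all genes; these were Aldoa, Aldoc, Tpi1, Gapdh, Pgk1, Pgam1, Ldha, Slc16a3, Pfkfb3, Egln3, Bnip3 and Ero1l. Without wt 1, wt 3, any miR-34a deficient or any double deficient library the count of calls was 0, with between 7 and 16 higher before adjustment, and without p53 deficient 2 or 3 Bnip3 passed as well. This comparison shares its wt libraries with the one of p53 deficient tumours.

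Against miR-34a deficient tumours, double deficient tumours had a higher level of Slc16a3 as the only call, where 0.905% of all genes were called. At an unadjusted p under 0.05, 19 of the 37 were higher, against 7.47% of all genes, with differences between 0.43 for Kdm3a and 2.44 for Slc16a3, and Epas1 was lower at -0.61 ± 0.21 (adjusted p = 0.162). The 2 groups did not overlap for 23 of the 37, against 13.0% of all genes, and the median was 0.68. The count of calls ranged from 0 without miR-34a deficient 1, miR-34a deficient 2 or double deficient 3 to 4 without p53 deficient 1, and was 2 without wt 1, wt 3, p53 deficient 2, p53 deficient 3 or double deficient 1.

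The comparisons of p53 deficient with wt and of double with miR-34a deficient tumours share no library, so their differences measure p53 loss in separate tumours. Their p-values share 1 estimate of the spread from all 12 libraries and are not independent. In both comparisons, 31 of the 37 genes (83.8%) lay above 0, against 27.5% of all genes. Higher at an unadjusted p under 0.05 in both were Pfkm, Aldoc, Tpi1, Pgk1, Pkm, Ldha, Slc16a1, Egln3, Kdm3a and Ak4, which is 10 of 37 (27.0%), against 2.14% of all genes. The groups did not overlap in either comparison for 5 of the 37 (13.5%), against 2.24% of all genes. Over all 4 groups, every p53-lacking library was above every p53-retaining one for Pgk1 and Ero1l, against 1.48% of all genes.

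**Figure D4:**
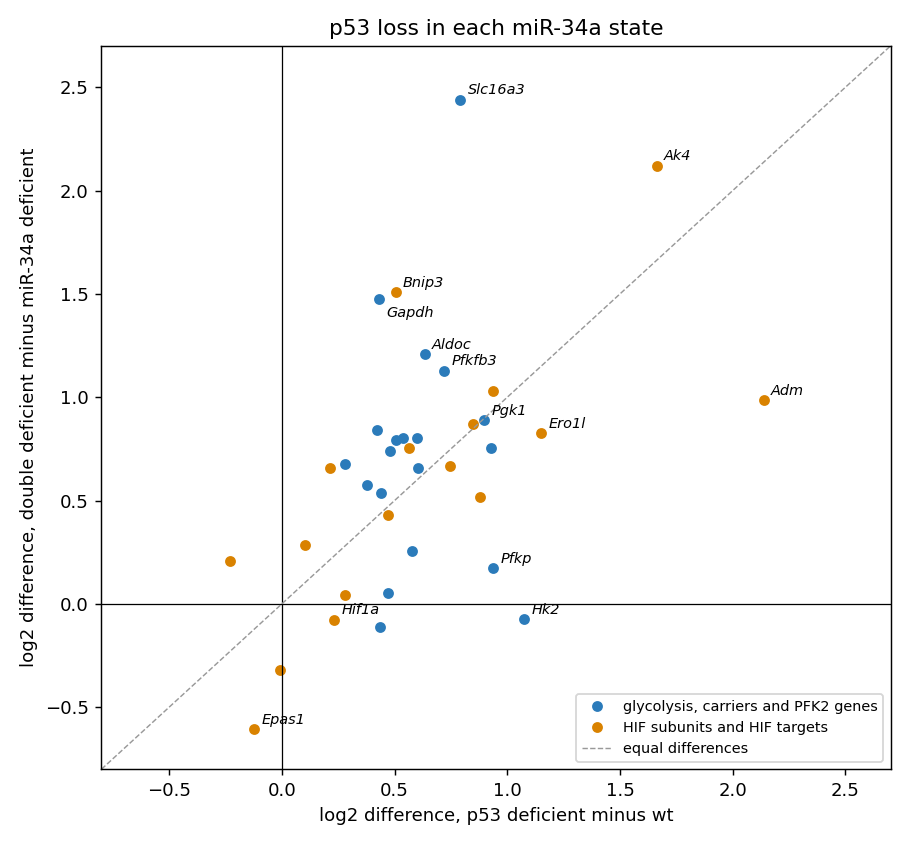
Log2 difference with p53 loss in tumours that keep miR-34a (x axis, p53 deficient minus wt) and in tumours that lack it (y axis, double deficient minus miR-34a deficient) for the 37 genes, blue for glycolysis, carriers and PFK2 genes and orange for HIF subunits and targets; the dashed line marks equal differences. Most points lie above 0 on both axes, with Pgk1 close to the line, Slc16a3, Gapdh and Bnip3 above it and Hk2, Pfkp and Adm below it.

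Loss of miR-34a alone gave no call among these genes. Against wt none of the 37 passed by limma in miR-34a deficient tumours, where 0.0375% of all genes were called, and at an unadjusted p under 0.05 Ak4 was lower at -1.11 ± 0.47 (adjusted p = 0.784; -0.72 without wt 1) and none was higher. The median of the 37 was -0.04, and it lay between -0.16 and -0.04 with 1 library left out. The mean of the miR-34a deficient group was the lowest of the 4 genotypes for 27 of the 37 genes, all 6 of upper glycolysis included, against 22.7% of all genes. That of wt was lowest for 7 (18.0% of all genes), of p53 deficient for 1 (32.7%) and of double deficient for 2 (26.6%). Most of the 37 were higher in p53-lacking tumours, so these counts do not measure miR-34a loss alone. The spread of the miR-34a deficient group was narrow for some genes, with an SD of 319 on a mean of 17525 for Pgk1 and of 516 on a mean of 24143 for Ldha.

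Over both p53 states, miR-34a loss gave no call among the 37 by limma, where 0.342% of all genes were called. At an unadjusted p under 0.05, Bnip3 was higher at 0.54 ± 0.25 (adjusted p = 0.363; 0.33 without p53 deficient 2), and Ak4 at -0.88 ± 0.33 (adjusted p = 0.283) and Slc16a1 at -0.39 ± 0.17 (adjusted p = 0.339; -0.23 without double deficient 1) were lower. These counts of 1 higher and 2 lower turned on single libraries, with 0 higher and 7 lower without p53 deficient 1 and 3 higher and 0 lower without p53 deficient 3. Double deficient against p53 deficient tumours gave no call either, where 0.605% of all genes were called. There 3 of the 37 were higher and 2 lower at an unadjusted p under 0.05. These counts were 2 and 8 without p53 deficient 1, 2 and 0 without p53 deficient 2, and 4 and 1 without p53 deficient 3. The higher ones were Slc16a3 at 1.21 ± 0.39 (adjusted p = 0.185), Bnip3 at 1.05 ± 0.35 (adjusted p = 0.200; 0.62 without p53 deficient 2) and Gapdh at 0.76 ± 0.33 (adjusted p = 0.307; 0.40 without p53 deficient 1). The lower ones were Hk2, at -0.40 without double deficient 1, and Pfkp, at -0.46 without p53 deficient 2. Without p53 deficient 3 Bnip3 passed as higher, and without p53 deficient 1 Pfkp passed as lower. All 3 double deficient libraries lay below all 3 p53 deficient libraries in their Y-linked level, and with that level as a covariate the median of the 37 in this comparison was 0.13, against -0.08 without it. Leaving out 1 library moved that median from -0.22 without p53 deficient 2 to 0.22 without p53 deficient 3, and to 0.016 without double deficient 2.

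The interaction of both deletions, which asks whether p53 loss had another effect in the absence of miR-34a, gave no call among the 37 by limma, where 0.0234% of all genes were called. At an unadjusted p under 0.05, Slc16a3 was higher at 1.65 ± 0.55, Gapdh was higher at 1.04 ± 0.47 (adjusted p = 0.626; 0.685 without p53 deficient 1) and Hk2 was lower at -1.15 ± 0.43 (adjusted p = 0.567). The median of the 37 was 0.10, and it moved from -0.12 without p53 deficient 2 to 0.35 without p53 deficient 3. The counts before adjustment, 2 higher and 1 lower, were 1 and 4 without p53 deficient 1 and 4 and 0 without p53 deficient 3.

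The p53-lacking libraries were not alike. Of the 37 genes, 23 had their highest value in p53 deficient 3, in which 9.75% of all genes were highest, and 7 had it in double deficient 3, in which 3.22% of all genes were highest. In p53 deficient 3, 34 of the 37 lay above every wt library, in p53 deficient 1 and 2 it was 13 and 22, and in double deficient 1, 2 and 3 it was 17, 22 and 27. In the 3 miR-34a deficient libraries it was 2, 5 and 2. The same held for between 22.4% and 30.7% of all genes in each of these 9 libraries.

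Glycolysis and the other HIF targets did not rank the libraries alike. The median of the 20 genes of glycolysis, carriers and PFK2, over the wt mean, was 0.25, 0.50 and 0.86 in p53 deficient 1, 2 and 3 and 0.27, 0.60 and 0.74 in double deficient 1, 2 and 3. That of the 15 HIF targets outside glycolysis was 0.20, 0.16 and 1.52 and 0.47, 0.30 and 0.72 in the same libraries. In p53 deficient 2, the library with the low Hox level, Pfkp, Aldoa and Slc16a1 were the highest of all 12 libraries while Bnip3 and Ndrg1 were the lowest. All 15 HIF targets lay above the wt mean in p53 deficient 3, against 8 and 10 of 15 in p53 deficient 1 and 2.

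**Figure D5:**
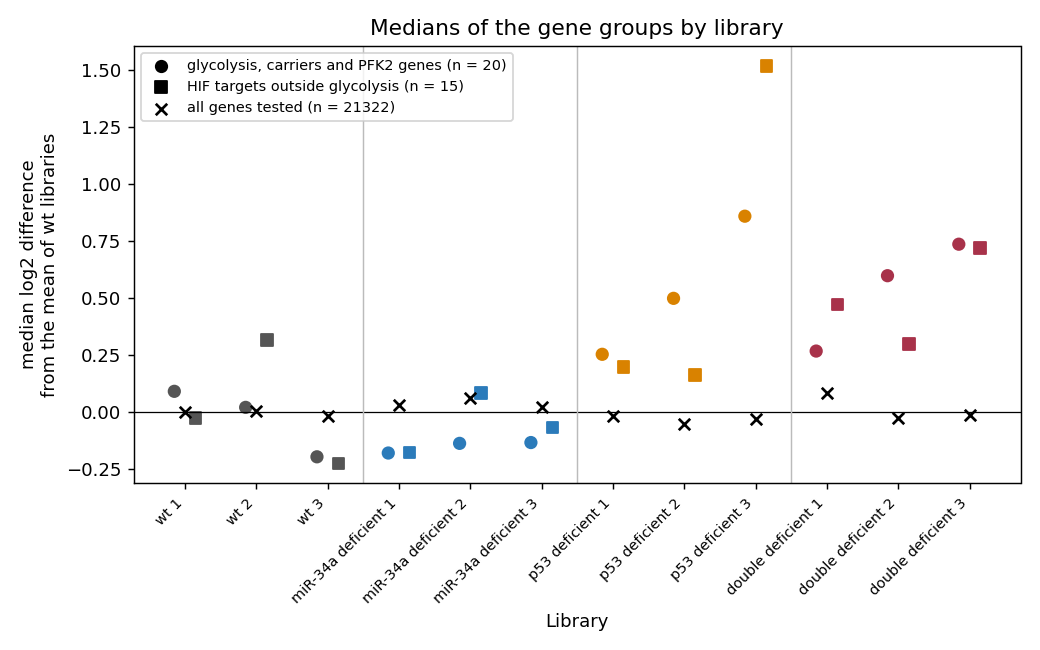
Median log2 difference from the mean of the wt libraries (y axis) in each library (x axis), for the 20 glycolysis, carrier and PFK2 genes (circles), the 15 HIF targets outside glycolysis (squares) and all 21322 genes tested (crosses). Crosses stay between -0.05 and 0.08, the circles of all 6 p53-lacking libraries lie at 0.25 or more, and the squares reach 1.52 in p53 deficient 3 but 0.16 in p53 deficient 2.

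Neighbouring pathways were read from lists of genes grouped by function, which were chosen with earlier results of these data known. Among 18 other isozymes and carriers of glycolysis none passed with p53 loss over both miR-34a states by limma, with 0 higher and 1 lower at an unadjusted p under 0.05 and a median of 0.14. The glucose carrier gene Slc2a3 was at 0.59 ± 0.29 (adjusted p = 0.238). None of 7 gluconeogenic genes passed, with Pck1 at -2.45 ± 0.78 (adjusted p = 0.0867) and Pck2 at 0.58 ± 0.23 (adjusted p = 0.153), and 1 was higher and 1 lower at an unadjusted p under 0.05. None of 8 genes of the pentose phosphate pathway passed, with a median of 0.07 and only Taldo1 at an unadjusted p under 0.05 (-0.34 ± 0.10, adjusted p = 0.0781). None of 12 genes that govern the entry of pyruvate into mitochondria passed, although 4 were higher and 2 lower before adjustment; the smallest p-values were those of Dlat, a pyruvate dehydrogenase subunit, at 0.30 ± 0.09 (adjusted p = 0.0788) and Pdk4, which blocks that enzyme, at -2.23 ± 0.71 (adjusted p = 0.0898).

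Of 7 metabolic genes linked to p53, Sesn2, a stress-induced inhibitor of mTORC1, and Gls2, a mitochondrial glutaminase, fell with p53 loss over both states, by 1.24 ± 0.16 (adjusted p = 0.00507) and by 1.15 ± 0.25 (adjusted p = 0.0275). Sesn2 was between 1604 and 2873 in p53-retaining and between 701 and 1285 in p53-lacking tumours. Among 12 genes of the HIF machinery none passed, with 1 higher and 1 lower before adjustment: Hif3a at 0.93 ± 0.37 (adjusted p = 0.156) and Vhl, which recruits HIF for degradation, at -0.25 ± 0.11 (adjusted p = 0.194).

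Of 30 other hypoxia targets, 6 rose and 1 fell over both states, where 5.05% of all genes were called in either direction. Their median was 0.29, and Slc2a3 is in this list as well as among the other isozymes and carriers. How these calls held with single libraries left out was not examined. Tfrc, the transferrin receptor that brings in iron, rose by 1.31 ± 0.15 (adjusted p = 0.00345), Nos2, the inducible nitric oxide synthase, by 2.13 ± 0.31 (adjusted p = 0.00972), and Mif, a secreted inflammatory factor, by 0.88 ± 0.14 (adjusted p = 0.0138). Pgm2, Vldlr and Stc2 rose by 0.87 ± 0.14, 0.97 ± 0.19 and 1.13 ± 0.23, and the collagen-modifying enzyme gene Plod1 fell by 0.89 ± 0.20 (adjusted p = 0.0352). Nos2 was between 326 and 1391 in p53-retaining and between 2157 and 5029 in p53-lacking tumours, without overlap. Tfrc also rose in double against p53 deficient tumours, by 1.14 ± 0.21 (adjusted p = 0.0444).

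Markers of other cell types moved with p53 status as well. All 3 red blood cell genes that matched a row of 5 listed rose over both states, Hba-a1 by 4.02 ± 0.70, Hba-a2 by 3.36 ± 0.74 and Alas2 by 3.00 ± 0.77 (adjusted p = 0.0167, 0.0308 and 0.0473). Their sum lay between 168 and 717 in wt, 399 and 702 in miR-34a deficient, 787 and 13202 in p53 deficient and 1854 and 14173 in double deficient tumours, and none was at 0. Of 5 proliferation genes all were higher at an unadjusted p under 0.05 and Birc5 rose by 0.63 ± 0.13 (adjusted p = 0.0264); their sum lay between 22428 and 45739 in p53-retaining and between 32777 and 51360 in p53-lacking tumours. Of 5 neutrophil genes Retnlg rose and was at 0 in 5 libraries, and their sum lay between 65 and 1308 in p53-retaining and between 66 and 1358 in p53-lacking tumours. None of 5 endothelial, 5 fibroblast, 5 smooth muscle, 5 macrophage, 3 skeletal muscle or 6 epithelial genes passed over both states by limma, where 1, 1, 0, 2, 1 and 1 of them reached an unadjusted p under 0.05. The part of blood, neutrophils or proliferation in the glycolytic levels was not tested.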

How the data were processed

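RNA of 12 tumours was sequenced, 3 libraries per genotype. The authors deposited 1 table of normalized scores, whole numbers per gene symbol; the values were already scaled between libraries. Per the submitters' processing notes, reads were placed on mm10. For the aligner, the counting step and the scaling method nothing is given in the sources used here, so no count test could be run, depth and counting error are unknown, and strand could not be used to separate overlapping genes. The score unit was found from the values, since upper quartiles were nearly equal (1905 to 1982.25) and 1 of 8 dimensions of variation within genotypes was absent when 9791 genes averaging 500 or more were used.

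Here log2(value + 1) was fitted with limma 3.58.1 in R 4.3.3 to all 12 libraries, with a trend in the prior variance, 8 residual degrees of freedom and no covariate, for 21322 genes with a mean of at least 1. P-values were adjusted by Benjamini-Hochberg over all genes tested in each of 8 comparisons, and the fit was tested on simulated data. The members and lists were chosen with earlier results of these data known. Values in every library are given for members that passed in any comparison, for the 12 with the smallest unadjusted p in p53 deficient against wt or in p53 loss over both miR-34a states, and for a representative of each role; differences are given at an unadjusted p under 0.05 and for Hif1a, Epas1 and Vegfa. Genes of other lists are named where they passed or had 1 of the 2 smallest p-values of their list. One gene that this rule names is not reported here. Alternatives were 2 scalings, a pseudocount of 10, 2 filters, no trend, fits of only 2 groups, 3 covariates, a replicate block, leaving out both libraries that carry the second run code, and leaving out each library. Near-identical copies were sought with BLAST+ 2.17.0 among GENCODE transcripts of GRCm38, and promoters came from RefSeq (GRCm38.p6).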

Additional observations from a re-analysis of the deposited data

How the results depend on the processing

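With p53 loss over both miR-34a states the count of called genes among the 37 was 11. It was 4 with no trend in the prior variance, 3 when the absent direction of variation entered the fit and 6 when the Y-linked level did, and it ranged from 0 to 17 when 1 library was left out, while the median of the 37 stayed between 0.53 and 0.70. In double deficient tumours against wt the count of 1 became 0 with no trend, with any of the absent direction, the Y-linked level and the run code in the fit, and without both libraries of the second run code, and ranged from 0 to 2 with 1 library left out. With only the 2 groups in the fit it was again 1, but the gene was Bnip3 and not Slc16a3. Double against p53 deficient tumours went from 0 to 1 without that pair of libraries and ranged from 0 to 1 with 1 library left out. Double against miR-34a deficient tumours went from 1 to 2 with quantile normalization, to 4 with only the 2 groups in the fit and to 0 with the run code in the fit or without that pair, and ranged from 0 to 4. P53 deficient against wt ranged from 0 to 2 with 1 library left out. The counts for miR-34a loss and for the interaction were 0 in each alternative. Hif1a, at 0.08 with p53 loss, ranged from -0.088 without p53 deficient replicate 3 to 0.24 without p53 deficient replicate 2, and was at -0.04 without wt replicate 1. The cause of these changes was not tested.

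Whether replicate numbers pair the libraries is not known. Of 18 same-number pairs 7 correlated above 0.1 (range -0.21 to 0.50), and pairs with different numbers were not compared with them. With the replicate block the count was 10 of the 37 with p53 loss over both states, 0 in double deficient tumours against wt and 1 against miR-34a deficient tumours. Depth is unknown, so no difference can be set against counting error.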
